A study of Bos taurus with 6 samples.

Results

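Retinoic acid is made from vitamin A, carried inside the cell by small binding proteins, read by nuclear receptors and removed by dedicated enzymes. Here 9 genes that cover these steps were followed in bovine embryonic stem cells: the retinal dehydrogenases ALDH1A2 and ALDH1A3, the cellular retinoic acid binding proteins CRABP1 and CRABP2, the receptors RARA, RARB, RARG and RXRA, and the retinoic acid hydroxylase CYP26A1. They were chosen as retinoid genes by name, but with earlier results of these data known. Their Entrez identifiers, in the order given, are 535075, 507093, 282201, 493998, 534280, 616895, 540425, 507554 and 539047. All 9 were present among the 19163 genes of the count table and among the 21357 genes of the length-scaled table. Of the 9, 8 had enough counts to be tested, and ALDH1A2 did not.

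The cells were F7, 1 line of pluripotent stem cells from in vitro fertilized Holstein Friesian embryos, so the results hold for a single line. F7 was grown on mouse embryonic fibroblasts (MEFs) arrested with mitomycin C (MC-F7, which the labels also call 1M-F7) or on MEFs fixed with methanol (MT-F7), with 15 passages given for both and 3 libraries in each group. Both groups had the same growth-factor-free mTeSR1 base with FGF and the Wnt pathway inhibitor IWR1. The mitomycin C feeders were alive and the methanol feeders were dead. The medium was changed every day for MC-F7 and every other day for MT-F7, so feeder and medium change cannot be told apart. In both groups the feeders were to be removed by letting them attach briefly to gelatin and collecting the floating cells.

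In the usual scheme, retinol is oxidized to retinal and then, by ALDH1A enzymes, to retinoic acid. CRABP2 hands retinoic acid to the receptors, CRABP1 holds it in the cytoplasm, and CYP26 enzymes hydroxylate it. RAR and RXR bind DNA as pairs, recruit corepressors without ligand and coactivators with it, and CYP26A1, RARB, CRABP2 and DHRS3 are themselves textbook target genes of retinoic acid. In early embryos this pathway patterns the hindbrain and trunk, while the forebrain and eye field develop where CYP26 enzymes keep retinoic acid low.

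CRABP1, CYP26A1 and ALDH1A3 rose in MT-F7, and the receptors and CRABP2 did not pass the test. The fold changes of the 3 genes were 9.99, 6.3 and 12.3. Each library had between 21958386 and 24933430 counts on genes. Levels are counts per 1000000 counts after TMM scaling (CPM, mean ± SD, n = 3 libraries per group). Both groups were set against each other by the quasi-likelihood test of edgeR over 13001 genes with Benjamini-Hochberg adjustment, where an adjusted p under 0.05 was called and a positive log2 fold change (log2FC, given with its standard error, SE) means higher in MT-F7. By this rule 3 of the 8 tested genes were higher and 0 lower, against 11.9% higher and 11.3% lower of all tested genes (23.2% in either direction). With the unadjusted p under 0.05, RARB and RARG were also lower, but the share of all tested genes at this looser threshold is not given here. Groups did not overlap in 4 of the 8 genes (MT-F7 above in 3 and below in 1), against 40% of all tested genes. The median log2 fold change of the 8 genes was 0.12, and that of all tested genes was -0.0026. In bulk RNA, fewer cells that use a gene and less RNA per cell cannot be told apart.

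**Figure D1:**
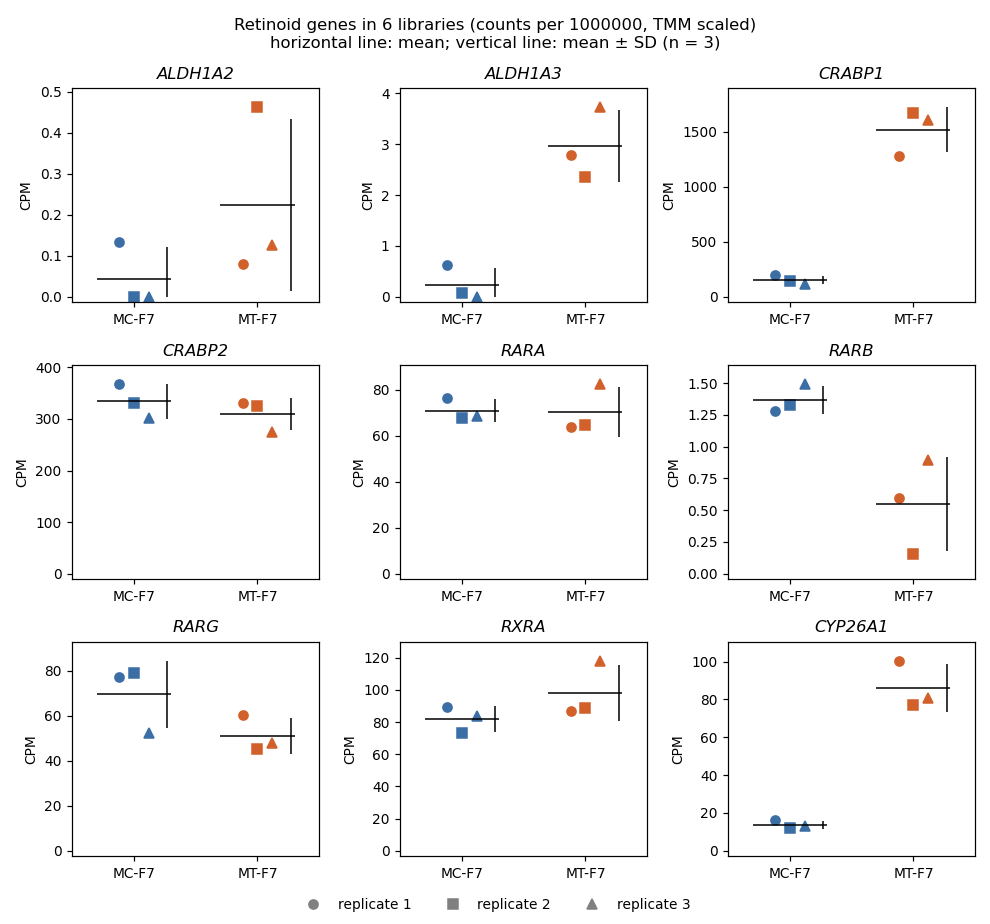
CPM of the 9 genes (y axes, linear and different for each gene) in the 3 MC-F7 libraries (blue) and the 3 MT-F7 libraries (orange), with symbols for the replicate number, the mean as a horizontal line and the SD as a vertical line. The groups stood apart for ALDH1A3, CRABP1 and CYP26A1, with MT-F7 higher, and for RARB, with MT-F7 lower, and overlapped for the other 5 genes.

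Some facts of the whole series touch these results. The libraries kept the stem cell marker POU5F1 in both groups, at a mean of 1195 CPM in MC-F7 and 522 CPM in MT-F7. Of 11 tested pluripotency markers 8, POU5F1 among them, were lower in MT-F7 and 0 higher. Of all tested genes 11.3% were lower and 11.9% higher, which also holds beside the marker counts that follow. The summed level of the listed markers was 1394 to 2079 CPM in MC-F7 and 759 to 886 CPM in MT-F7. Of 9 tested neural ectoderm markers 6 were higher and 0 lower, with summed levels of 774 to 862 and 1600 to 1733 CPM. Of 23 tested fibroblast markers 11 were higher and 0 lower, with summed levels of 2146 to 2941 and 3834 to 5486 CPM, while the fibroblast factor TCF21 was at 0 in all libraries. Of 6 tested trophectoderm markers 4 were lower and 0 higher (686 to 798 CPM in MT-F7 and 1878 to 2908 CPM in MC-F7), and CDX2 was at 0. Of 4 tested mesoderm and endoderm markers 1 was higher and 2 were lower, with summed levels of 17.4 to 17.7 CPM in MC-F7 and 14.6 to 17.0 CPM in MT-F7, and HAND1, GATA4 and AFP were at 0. The part of these cell types in the changes of the retinoid genes was not tested. Whether reads from mouse cells were removed is not given in the sources used here. The authors report a higher overall alignment rate to the bovine genome for MT-F7 than for MC-F7. They propose that fixed feeders left fewer feeder cells in the cultures, so feeder carryover may differ between the groups. The part of feeder reads in the retinoid genes was not tested. The replicate 3 libraries of both groups departed from their group means in a similar way (r = 0.544 across genes). Separate cultures are not stated for the libraries, so the p-values may measure only technical spread.

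The enzymes that make retinoic acid were low in both groups. ALDH1A3 was counted 14, 2 and 0 times in MC-F7, against 70, 61 and 88 times in MT-F7. Every MT-F7 library was higher, and 1 of the MC-F7 libraries held nearly all counts of that group. The level rose from 0.234 ± 0.336 to 2.96 ± 0.706 CPM (log2FC 3.63, SE 0.677, adjusted p = 0.0020). Without MC-F7 replicate 1 the remaining MC-F7 libraries held 2 counts against 219 in MT-F7, a ratio of 66.9 with a 95% counting interval of 18.3 to 556. There the log2FC was 5.92 (adjusted p = 1.3e-04), so the size of this change turned on 1 library and its call did not.

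ALDH1A2, the main retinal dehydrogenase of the embryonic trunk, was counted 3, 0 and 0 times in MC-F7, against 2, 12 and 3 times in MT-F7. The summed counts of 3 and 17 gave a ratio of 5.18 with an exact 95% interval of 1.5 to 27.6, which covers counting error only. Replicate 2 of MT-F7 held 12 of the 17 counts and the groups overlapped, so no difference larger than the spread between libraries was seen. ALDH1A1, the third enzyme of this family, was counted 0, 9 and 4 times in MC-F7, against 6, 9 and 3 times in MT-F7 and was also too low to be tested. Scaled by gene length and to 1000000 per library (TPM), the 3 enzymes together summed to 0.237 ± 0.107 (MC-F7) and 1.61 ± 0.148 (MT-F7). For ALDH1A3 this level ranked between 10355 and 11048 among the 21357 genes in the MT-F7 libraries.

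CRABP1 gave the largest difference in level of the 9 genes. It stood at 197, 139 and 120 CPM in MC-F7 against 1284, 1672 and 1607 CPM in MT-F7. The lowest MT-F7 library stood far above the highest MC-F7 library. The mean went from 152 ± 39.9 to 1521 ± 208 CPM (log2FC 3.32, SE 0.220, 95% interval 2.85 to 3.80, adjusted p = 8.3e-07). On the length-scaled values CRABP1 ranked 378, 469 and 495 among 21357 genes in MC-F7 but 77, 69 and 52 in MT-F7.

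CRABP2, which passes retinoic acid on to RAR, did not pass the test. It stood at 368, 331 and 302 CPM in MC-F7 against 330, 325 and 274 CPM in MT-F7, and the groups overlapped. The log2FC was -0.11 (SE 0.154, adjusted p = 0.66), and its 95% interval of -0.44 to 0.22 leaves out any change near the size of that of CRABP1. In the length-scaled values CRABP1 made up 49.0% ± 3.92 of the summed CRABP level in MC-F7 but 91.2% ± 1.72 in MT-F7. The shares were 53.4, 47.4 and 46.1% on live feeders against 89.3, 91.7 and 92.6% on fixed feeders, and the groups did not overlap. A two-sided exact permutation test gave p = 0.1, the smallest that 3 libraries against 3 allow, and 0.23 after adjustment over the 14 shares computed. The summed CRABP level was 433 ± 79.9 TPM in MC-F7 and 2474 ± 331 TPM in MT-F7.

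The receptors RARA and RARG were both well above 0 in all libraries and neither passed the test. RARA stood at 76.5, 67.5 and 68.4 CPM in MC-F7 against 63.6, 64.7 and 82.6 CPM in MT-F7, and the highest value of all belonged to MT-F7 replicate 3. Its log2FC was -0.011 (SE 0.155, adjusted p = 0.97) with a 95% interval of -0.35 to 0.33, and its sign changed with scaling by library size only and on the length-scaled values. RARG stood at 77.2, 79.1 and 52.4 CPM in MC-F7 against 60.1, 45.2 and 48.0 CPM in MT-F7. Replicate 3 of MC-F7 lay among the MT-F7 libraries, and the other MC-F7 libraries lay above all of them. The log2FC was -0.45 (SE 0.187, 95% interval -0.85 to -0.041, adjusted p = 0.11). Without MC-F7 replicate 3 it was -0.62 (adjusted p = 0.017), so the call for RARG turned on this library.

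RARB, a receptor gene that retinoic acid itself induces in many cells, was scarce. It was counted 29, 32 and 32 times in MC-F7, against 15, 4 and 21 times in MT-F7. Every MT-F7 library was lower than every MC-F7 library, and the 3 MC-F7 libraries were alike while the MT-F7 libraries were spread out. The means were 1.37 ± 0.113 and 0.548 ± 0.371 CPM (log2FC -1.32, SE 0.516, 95% interval -2.44 to -0.21, adjusted p = 0.083), which did not pass. Without MT-F7 replicate 3 the log2FC was -1.86 (adjusted p = 0.039), without MT-F7 replicate 2 it was -0.87 (adjusted p = 0.24), and without any other single library it was not called. When replicate 3 of both groups was left out, the count of all tested genes called lower went from 1463 to 2047. In that fit RARB (-1.77, adjusted p = 0.041) and RARG (-0.55, adjusted p = 0.0050) were both called lower. The count of the 9 genes called lower thus went from 0 to 2. A fit with the replicate number as a block, which called 36% of all tested genes, called the same number, RARB (adjusted p = 0.029) and RARG (adjusted p = 0.016).

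RXRA, the partner that RARs need to bind DNA, stood at 89.2, 73.2 and 83.9 CPM in MC-F7 against 86.9, 88.9 and 118 CPM in MT-F7. The groups overlapped, and MT-F7 replicate 3 was the high library. The log2FC was 0.26 (SE 0.164, 95% interval -0.10 to 0.61, adjusted p = 0.29).

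Compared per length, RARG and RARA made up nearly all RAR transcripts and RXRA and RXRB nearly all RXR transcripts. RARA took 40.7% ± 4.91 (MC-F7) and 48.2% ± 5.95 (MT-F7) of the RAR level, and RARG took 56.8% ± 5.42 and 50.7% ± 6.14. Both shares overlapped between the groups (exact permutation p = 0.2 for each, adjusted p = 0.28). RARB took 2.45% ± 0.565 and 1.12% ± 0.710, without overlap (exact permutation p = 0.1, adjusted p = 0.23). RXRA took 48.1% ± 1.71 (MC-F7) and 50.3% ± 2.76 (MT-F7) of the RXR level (exact permutation p = 0.3, adjusted p = 0.38). Summed over the 3 genes, the RAR level was 51.0 ± 8.14 TPM (MC-F7) and 44.6 ± 2.80 TPM (MT-F7), and the RXR level was 46.9 ± 2.28 and 56.9 ± 11.0 TPM. For neither sum was a difference beyond the spread seen (exact permutation p = 0.3 and 0.2, or 0.3 and 0.25 when adjusted over the 5 family sums).

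**Figure D2:**
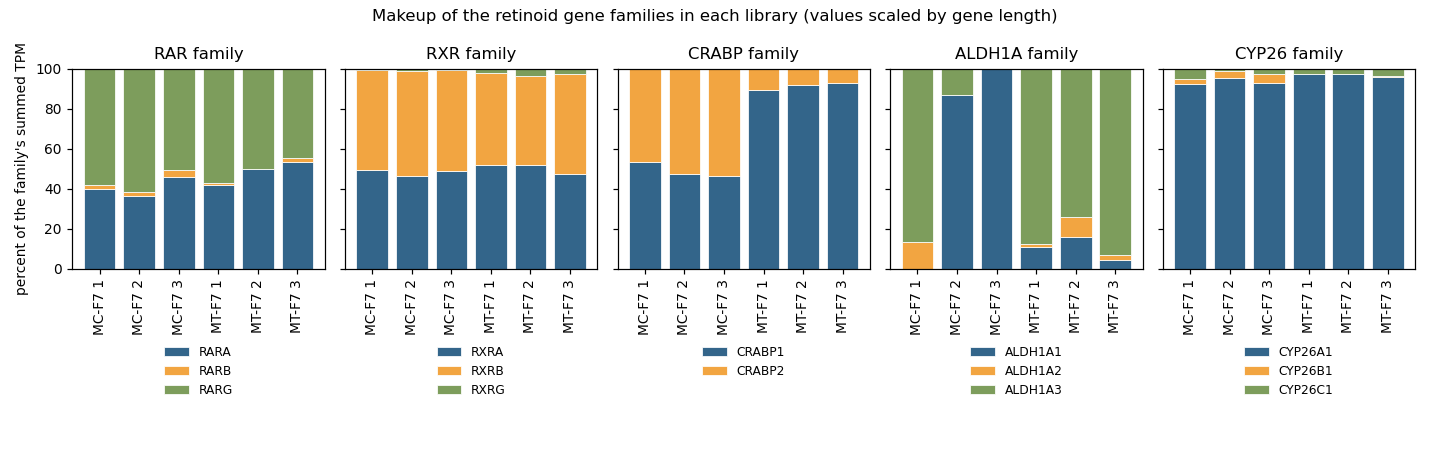
Percent of the summed TPM of each family (y axis) taken by each of its genes in the 6 libraries (x axis, group and replicate number). CRABP1 filled 46.1 to 53.4% of the CRABP bars of MC-F7 but 89.3 to 92.6% of those of MT-F7, RARA filled 36.3 to 53.4% of the RAR bars over all libraries, and the ALDH1A bars of MC-F7 rest on 0 to 14 counts per gene.

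CYP26A1, which clears retinoic acid and is strongly induced by it, rose with CRABP1. It stood at 16.2, 12.0 and 12.8 CPM in MC-F7 against 100.4, 77.1 and 80.8 CPM in MT-F7. All MT-F7 libraries were far above all MC-F7 libraries. The mean went from 13.7 ± 2.21 to 86.1 ± 12.6 CPM (log2FC 2.65, SE 0.181, 95% interval 2.26 to 3.05, adjusted p = 1.1e-06). CYP26A1 ranked 5302, 6193 and 6025 by length-scaled level among the 21357 genes in MC-F7 but 1208, 1561 and 1461 in MT-F7.

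The 3 CYP26 genes did not move one way. CYP26C1 lies next to CYP26A1, with no protein-coding gene between them in the RefSeq order of assembly ARS-UCD2.0. CYP26C1 was counted 18, 4 and 7 times in MC-F7, against 65, 47 and 72 times in MT-F7. It rose from 0.430 ± 0.327 to 2.49 ± 0.627 CPM (log2FC 2.52, SE 0.498, adjusted p = 0.0030). CYP26B1 was counted 33, 33 and 41 times in MC-F7, against 11, 7 and 20 times in MT-F7. It fell from 1.58 ± 0.294 to 0.519 ± 0.298 CPM (log2FC -1.61, SE 0.463, adjusted p = 0.024), a call that was lost without MC-F7 replicate 2 or 3 or MT-F7 replicate 1 or 2 (adjusted p = 0.055, 0.062, 0.087 and 0.097). Per length, CYP26A1 made up 93.5% ± 1.44 (MC-F7) and 96.7% ± 0.896 (MT-F7) of the CYP26 level, so the sum of the family, 11.1 ± 1.82 and 71.3 ± 10.8 TPM, followed CYP26A1. The CYP26, CRABP and ALDH1A sums did not overlap between the groups (exact permutation p = 0.1 for each, the smallest possible, and 0.17 adjusted over the 5 family sums).

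Around these genes lie the carriers, the stores and the dehydrogenases that feed the pathway, 31 further retinoid genes of which 29 were in the count table and 20 could be tested. Of the 20, 5 were higher, 4 were lower and 11 did not pass, against 11.9% higher and 11.3% lower of all tested genes, with a median log2 fold change of -0.14. RBP4, the plasma retinol carrier, fell from 537 ± 96.6 to 353 ± 19.3 CPM (log2FC -0.60, SE 0.168, adjusted p = 0.020). The call for RBP4 was lost without any of 4 single libraries, MC-F7 replicates 1 and 2 and MT-F7 replicates 1 and 2 (adjusted p = 0.066, 0.083, 0.0504 and 0.076). STRA6, the membrane receptor through which retinol enters from RBP4, had 48.9 ± 4.53 and 39.2 ± 10.5 CPM (log2FC -0.32, adjusted p = 0.25), and it passed when MT-F7 replicate 3 was left out (-0.57, adjusted p = 0.018).

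LRAT, which esterifies retinol for storage, stood at 6.46, 5.64 and 4.95 CPM in MC-F7 against 18.4, 16.1 and 13.2 CPM in MT-F7. No MT-F7 library came near the MC-F7 range, and the log2FC was 1.48 (SE 0.199, adjusted p = 1.8e-04). RDH5, a retinol dehydrogenase best known from the eye, rose from 2.74 ± 0.560 to 7.13 ± 2.34 CPM (log2FC 1.38, adjusted p = 0.0037). BCO2, which cleaves carotenoids, rose from 1.39 ± 0.597 to 3.21 ± 0.271 CPM (log2FC 1.20, adjusted p = 0.021), and did not pass without MC-F7 replicate 1 or 3 or MT-F7 replicate 1 or 2 (adjusted p = 0.060, 0.059, 0.051 and 0.068). BCO1, which cleaves carotenoids to retinal and was named after its values were seen, was too low to be tested, with 28, 9 and 12 counts on live feeders against 8, 4 and 2 on fixed feeders (summed ratio 0.261, exact 95% counting interval 0.133 to 0.481). RDH10, the dehydrogenase that makes retinal in embryos, stood at 3.98, 6.67 and 10.9 CPM in MC-F7 against 6.81, 4.83 and 7.43 CPM in MT-F7, with overlapping groups (log2FC -0.18, adjusted p = 0.73). RDH11, RDH13 and RDH14, named after their values were seen, did not pass either (log2FC -0.37, -0.49 and -0.36, adjusted p = 0.36, 0.17 and 0.34). RDH12 and DHRS4, also named afterwards, did not pass with a positive log2FC (0.39 and 0.41, adjusted p = 0.35 and 0.076).

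DHRS3 showed the largest decrease in log2FC of the tested retinoid genes. This enzyme reduces retinal back to retinol and its gene is a common target of retinoic acid. It stood at 52.6, 50.3 and 55.6 CPM in MC-F7 against 14.8, 12.4 and 12.6 CPM in MT-F7. The libraries within each group were close together and the groups were far apart. The log2FC was -1.99 (SE 0.157, 95% interval -2.33 to -1.65, adjusted p = 3.4e-06). ALDH8A1, a dehydrogenase that can oxidize retinal, fell from 1.56 ± 0.297 to 0.495 ± 0.0397 CPM (log2FC -1.64, adjusted p = 0.0099). Among the other receptors, RXRG rose from 0.609 ± 0.205 to 2.27 ± 0.623 CPM (log2FC 1.88, adjusted p = 0.0054), and RXRB had 51.5 ± 1.95 and 55.2 ± 17.0 CPM (log2FC 0.10, adjusted p = 0.76). The share of RXRG in the RXR level was 0.846% ± 0.303 in MC-F7 and 2.75% ± 0.706 in MT-F7.

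**Figure D3:**
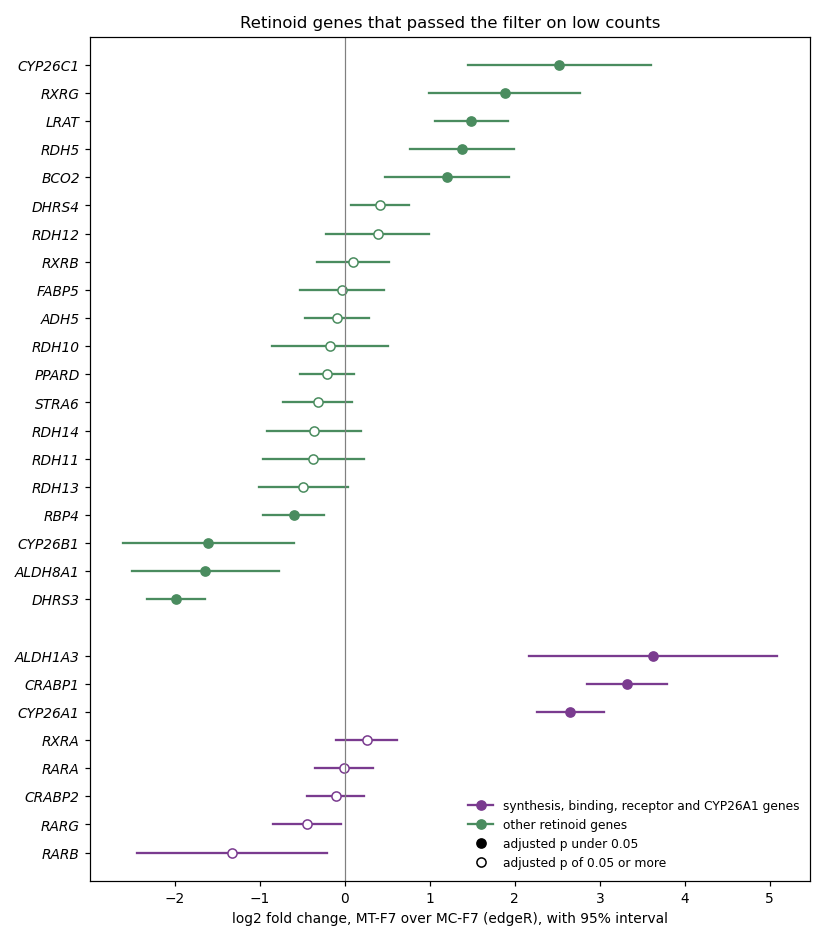
Log2 fold change of MT-F7 over MC-F7 (x axis) with its 95% interval for the 8 tested genes of the set (purple) and the 20 tested other retinoid genes (green), where filled points have an adjusted p under 0.05. ALDH1A3, CRABP1, CYP26A1 and CYP26C1 stood at 2.52 or more, and DHRS3, ALDH8A1, CYP26B1 and RBP4 were the filled points below 0.

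Of 14 corepressor and coactivator genes of the receptors 13 were tested, 2 were higher and 0 lower, against 11.9% higher and 11.3% lower of all tested genes, and the median log2 fold change was 0.10. NCOA1, a coactivator that docks on liganded receptors, stood at 19.4, 19.8 and 20.8 CPM in MC-F7 against 33.3, 34.6 and 34.6 CPM in MT-F7 (log2FC 0.77, SE 0.147, adjusted p = 0.0023). The histone acetyltransferase gene CREBBP rose from 76.0 ± 12.0 to 110.2 ± 9.45 CPM (log2FC 0.54, adjusted p = 0.027), and did not pass without MC-F7 replicate 1 or 2 or MT-F7 replicate 1 or 3 (adjusted p = 0.084, 0.14, 0.078 and 0.053).

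Genes widely described as induced by retinoic acid went in different directions. Of 30 listed genes 28 were in the count table and 14 were tested, of which 5 were higher, 2 were lower and 7 did not pass, against the same 11.9% and 11.3% of all tested genes, with a median log2 fold change of 0.52. MEIS1, MEIS2 and PAX6 are also known as genes of the neural plate and eye, and 6 of the 9 tested neural ectoderm markers, 1 of them PAX6 itself, rose in the same libraries. The part of neural cells in the change of any of the target genes was not tested. NR2F1, an orphan nuclear receptor gene, stood at 1.59, 1.33 and 1.64 CPM in MC-F7 against 18.2, 30.3 and 26.6 CPM in MT-F7. No other tested gene of the list differed as much, and the log2FC was 4.04 (SE 0.246, adjusted p = 6.5e-07). Its relative NR2F2 rose from 2.71 ± 0.385 to 8.04 ± 1.69 CPM (log2FC 1.57, adjusted p = 5.3e-04). PAX6, an eye and forebrain factor, rose from 2.63 ± 0.259 to 19.9 ± 0.590 CPM (log2FC 2.92, adjusted p = 7.7e-07). The homeobox genes MEIS1 and MEIS2 rose at a log2FC of 2.39 and 1.86. GBX2, a gene of the anterior hindbrain border, fell from 1.71 ± 0.310 to 0.362 ± 0.0378 CPM (log2FC -2.22, adjusted p = 0.0020). STRA8 and TGM2, 2 more targets that were named after their values were seen, stood at a log2FC of 0.073 and 0.23 (with adjusted p = 0.93 and 0.75).

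The HOX genes, the best known retinoic acid targets in the trunk and hindbrain, were at very low counts. Of 11 listed HOX genes 10 were in the count table and 0 had enough counts to be tested, with at most 22 counts in an MC-F7 library and 5 in an MT-F7 library. Together the 10 genes were counted 15, 34 and 48 times in MC-F7, against 9, 0 and 0 times in MT-F7. In 5 of them MC-F7 had counts and all MT-F7 libraries were at 0. HOXB4 was counted 7, 10 and 10 times in MC-F7, against 0, 0 and 0 times in MT-F7, at least 9.85-fold lower if 3 counts over the group are taken as the least detectable amount. HOXA5 was counted 5, 16 and 22 times in MC-F7, against 3, 0 and 0 times in MT-F7. HOXB4 and HOXA5 were named after their values were seen, and both were called lower when all genes with at least 1 count were tested. Most of the tested fibroblast markers went towards MT-F7. Of the 23 tested 11 were called higher in MT-F7 and 0 lower, against 11.9% and 11.3% of all tested genes. In log2FC 19 were above 0 and 4 below, and the summed level of the list was higher in MT-F7. PRRX1 and FAP, named after their values were seen, went against most of the list. PRRX1 was counted 14, 11 and 20 times in MC-F7, against 4, 6 and 6 times in MT-F7 (edgeR adjusted p = 0.054). FAP, too low to be tested, was counted 0, 9 and 7 times in MC-F7, against 0, 0 and 0 times in MT-F7. The part of other cells in the HOX counts was not tested.

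**Figure D4:**
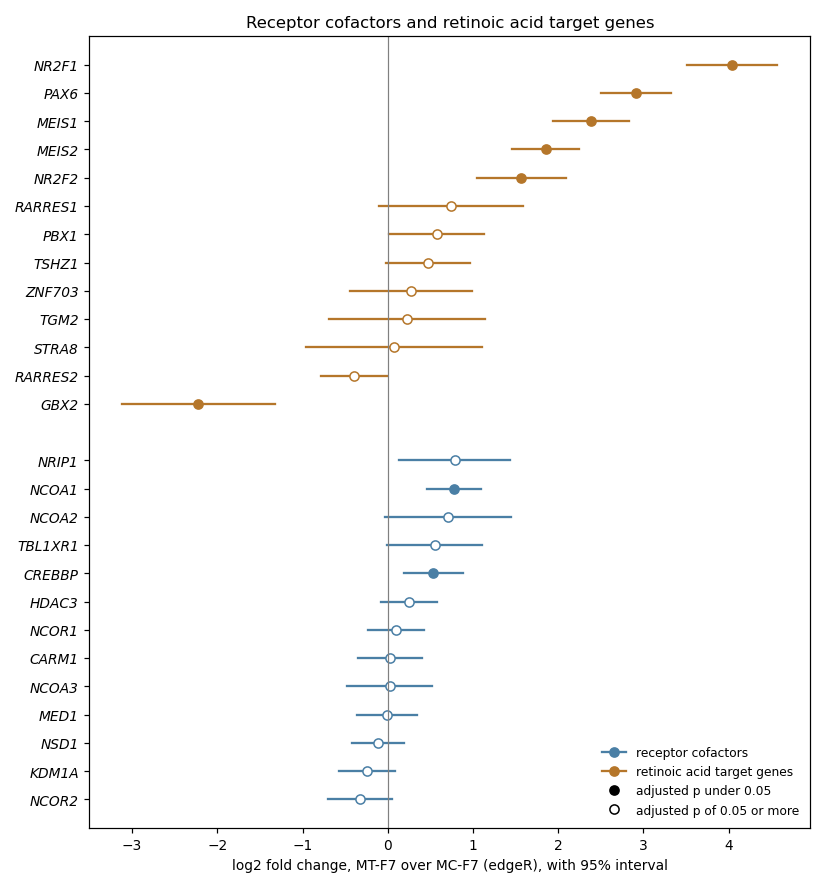
Log2 fold change of MT-F7 over MC-F7 (x axis) with its 95% interval for 13 receptor cofactors (blue) and 13 of the 14 tested retinoic acid target genes (brown), where filled points have an adjusted p under 0.05. The cofactors lay between -0.32 and 0.79, and the target genes spread from -2.22 for GBX2 to 4.04 for NR2F1.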

How the data were processed

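Libraries were paired-end Illumina RNA-seq from 3 MC-F7 and 3 MT-F7 samples. The authors aligned reads with HISAT2 2.0.5 and counted them per gene with featureCounts 1.5.0-p3, and the deposited count table holds raw counts. The deposited TPM values came from the authors with no scaling method stated in the sources used here, summed to 154763 to 164394 per library, and were rescaled here to 1000000. The genome build is not given in the sources used here, so no coordinates are printed. Whether mouse reads were removed is also not given there.

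Counts were tested with edgeR 4.0.16 in R 4.3.3 (TMM, filterByExpr with a minimum count of 10 and a total of 15, quasi-likelihood F test, Benjamini-Hochberg over all 13001 genes tested). Intervals are at the 95% level. Shares used two-sided exact permutation tests over libraries. The scripts were tested on simulated data. Alternatives were DESeq2 1.42.0, limma 3.58.1 on log2 of the rescaled TPM values plus 1 or 0.1, other scalings and filters, a replicate block, and leaving out libraries.

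The members and lists were chosen with earlier results of these data known. The text names the 9 genes, the called genes of each other retinoid list (up to 8 per direction), 10 further retinoid genes whatever their values, and the 2 genes most like each called gene of the 9. Symbols were matched to Entrez identifiers through the RefSeq table of assembly ARS-UCD2.0. RBPR2, EP300, HOXB5 and FOXC1 were not analysed here, and 1 tested target gene, called lower, is counted but not reported here by name or value.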

Additional observations from a re-analysis of the deposited data

How the results depend on the processing

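CRABP1 and CYP26A1 stayed called higher under all 15 alternatives (log2FC 3.16 to 3.55 and 2.52 to 2.80), and ALDH1A3 under the 14 that tested it (1.11 to 5.92). Replicate numbers 1 and 2 did not pair the libraries (r = 0.188 and 0.0893), while the replicate 3 libraries departed alike from their group means (r = 0.544). With a replicate block 2373 genes were called higher and 2301 lower (1553 and 1463 without it), with 2 of the 9 genes (RARB and RARG) and 1 cofactor among the lower ones. By limma the genes called lower were 966 (TPM + 1), 969 (TPM + 0.1) and 911 (mean of at least 1). Of other retinoid genes 2 (TPM + 0.1) and 1 (mean of at least 1) were then lower, and of target genes 5 (TPM + 0.1), or 4 by edgeR on genes with at least 1 count. RARA was at 0.00036 with library size only and at 0.059, 0.061 and 0.059 by limma in the same order. Without replicate 3 of both groups, chosen after seeing the data, or without 1 library, ranges were 1019 to 2195 genes higher, 895 to 2047 lower (the lowest of both without MC-F7 replicate 2), 0 to 2 of the 9 genes lower, 2 to 7 other retinoid genes lower, 1 to 3 cofactors higher, 0 to 1 lower, and 2 to 4 target genes lower. Over the same fits log2FC ran from -0.15 to 0.049 for RARA, -0.47 to 0.24 for RDH10 and -0.19 to 0.22 for RXRB, and the difference in family share (MT-F7 minus MC-F7, percentage points) from -2.39 to 4.79 for ALDH1A2 and -0.715 to 1.05 for CYP26C1. The causes were not tested. A group left with 2 libraries shares the spread of the other. Depth limits ALDH1A2, ALDH1A1 and the HOX genes, where 3 counts equal 0.116 to 0.14 CPM.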

Other observations

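The nearest tested protein-coding neighbours of the 9 genes, in RefSeq order, were looked up after the values were seen. Of these 18 neighbours 6 were called, against 23.2% of all tested genes. Both neighbours of CYP26A1 were higher in MT-F7, CYP26C1 (log2FC 2.52, edgeR adjusted p = 0.0030) and MYOF, a membrane repair gene, which went from 1.27 to 4.11 CPM (log2FC 1.70, SE 0.322, adjusted p = 0.0023). LRRK1 beside ALDH1A3 was higher as well, at 2.41 and 6.36 CPM (log2FC 1.40, adjusted p = 0.0033), while ASB7 on its other side did not pass (-0.54, adjusted p = 0.40). Beside CRABP1, IREB2, an iron regulatory RNA-binding protein gene, was lower (17.9 and 10.7 CPM, log2FC -0.74, adjusted p = 0.0081), and SKIC8 did not pass (0.16, adjusted p = 0.59). Beside genes that were not called, TOP2B next to RARB (log2FC 0.44, adjusted p = 0.049) and COL5A1 next to RXRA (log2FC 0.79, adjusted p = 0.010) were higher, and the other neighbours did not pass.

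Over the 6 libraries and 9289 genes, the levels on the log2(CPM + 1) scale most like CRABP1 were those of ACSS3 (Pearson r = 0.999) and IGFBP4 (r = 0.999). For CYP26A1 they were LHFPL2 (r = 0.998) and the forebrain homeobox gene LHX5 (r = 0.997), and for ALDH1A3 they were TP53I11 (r = 0.996) and CYB5RL (r = 0.993). All 6 genes had higher CPM in every MT-F7 library than in any MC-F7 library. The libraries form 2 groups, so these values describe the group difference and carry no p.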
